A study of Mus musculus with 17 samples.

Results

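The upstream flank of the mouse beta-globin locus is the stretch of chromosome 7 that lies beyond the locus control region on the side away from the globin genes. It was taken as mm9 chr7:111030500-111160000, a width of 129.5 kb, and a contact pair belonged to it when the midpoint of at least 1 of its fragments lay there. From the HS2 viewpoint 11944 of 331928 fragment pairs met this rule, with 66919 of 1433592 counts. From the beta CTCF viewpoint 33171 of 701591 pairs met it, with 225321 of 3476318 counts. Both viewpoints together gave 45115 of 1033519 pairs. The bounds use position only and no measured value. The flank began 20.7 kb and ended 150 kb from the centre of HS2, and it spanned 75.0 to 205 kb from the centre of beta CTCF.

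Contacts were measured by Tri-C, in which cross-linked chromatin is cut with NlaIII, ligated and captured for a chosen viewpoint, so that each read with a pair of further fragments reports which fragments met the viewpoint together. Erythroid cells were Ter-119+ cells from spleens of female C57BL/6 mice made anaemic with phenylhydrazine (3 biological replicates, 10 libraries). The ES cells were of the E14 line (3 biological replicates, 7 libraries), a line derived from strain 129/Ola, so the effects of strain and of cell type cannot be told apart. A contact level says how often a fragment was found with the viewpoint, not how often it met any other site. The labels do not say that a biological replicate is 1 animal or 1 culture, so p-values measure the spread between these samples, which may be technical.

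The beta-globin locus holds embryonic and adult globin genes and a locus control region, a cluster of enhancers that includes HS2 and drives the genes in erythroid cells. CTCF is a DNA-binding protein that halts the extrusion of chromatin loops, and pairs of CTCF sites often bound the domains within which enhancers act. The globin cluster is embedded in a large array of olfactory receptor genes, which are used in sensory neurons of the nose and are silent in red cells.

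Which genes lie in the flank was read from the order of genes in the RefSeq table (GRCm38.p6) together with a match of promoter sequences to the fragment map. NlaIII cuts at CATG, so the spacing of CATG in a promoter can be looked up among the fragment ends of the files, and a promoter with at least 3 sites was placed where exactly the same spacing occurred once. Of 56 promoters around the locus, 12 had enough sites and 5 were placed. In rising order of coordinate these were Olfr623, Olfr68, Olfr66, Olfr639 and Olfr642, which is also their order in the gene table. The positions are good to a few bases. The Olfr66 promoter fell inside the flank, 21.0 kb from HS2, and the Olfr639 promoter fell 1.17 kb beyond its far end. Both genes are on the minus strand, so their bodies run from there toward lower coordinates. How much of either body lies in the flank was not determined. In table order 13 genes run from Olfr66 up to the gene before Olfr639. They are the 8 protein-coding olfactory receptor genes Olfr66, Olfr64, Olfr65, Olfr631, Olfr632, Olfr633, Olfr635 and Olfr638, and the 5 pseudogenes Dnajc19-ps, Olfr634-ps1, Gm4886, Olfr636-ps1 and Olfr637-ps1. Olfactory receptor genes resemble each other, and whether reads of a fragment could have come from a similar copy was not tested.

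Of the placed promoters, a pair is shown because the contacts described below fall on or beside them. The Olfr66 promoter, 300 bases around the start of the gene on the minus strand, was placed at mm9 chr7:111030708-111031007 by 5 sites. The Olfr623 promoter, also on the minus strand, was placed at mm9 chr7:110809785-110810084 by 3 sites, in the flank on the other side of the locus, 200 kb from HS2. The letters are those of RefSeq (GRCm38.p6), read 5′ to 3′ along the gene, and capitals mark CATG, which reads the same on both strands. CATG occurs at least once in 61.1% of all 32851 promoter sequences of that length, at least 3 times in 10.8% and at least 5 times in 1.06%.
Olfr66 promoter: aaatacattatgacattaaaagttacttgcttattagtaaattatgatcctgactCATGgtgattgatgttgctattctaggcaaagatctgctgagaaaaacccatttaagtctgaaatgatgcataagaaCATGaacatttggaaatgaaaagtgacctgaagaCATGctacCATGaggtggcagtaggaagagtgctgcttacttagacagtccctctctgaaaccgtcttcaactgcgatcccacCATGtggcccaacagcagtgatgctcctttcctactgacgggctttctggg
Olfr623 promoter: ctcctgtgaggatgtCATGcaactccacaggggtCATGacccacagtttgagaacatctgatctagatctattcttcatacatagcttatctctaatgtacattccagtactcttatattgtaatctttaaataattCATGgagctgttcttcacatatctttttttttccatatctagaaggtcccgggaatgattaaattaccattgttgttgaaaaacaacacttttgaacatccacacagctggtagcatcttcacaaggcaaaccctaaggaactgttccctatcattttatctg

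Total counts per replicate were 222562 to 464338 in erythroid cells and 84849 to 272616 in ES cells for HS2, and 658673 to 1082506 and 93686 to 785662 for beta CTCF. ES replicate 1 stood apart from ES replicates 2 and 3 in the beta CTCF table, with 785662 counts against 93686 and 125570. It also had 45.0% of contact pairs with both fragments off chromosome 7. The erythroid replicates had 39.8 to 54.4%, and ES replicates 2 and 3 had 24.2% and 37.0%. From HS2 this share was 40.2 to 58.0% in erythroid replicates and 26.8 to 37.2% in ES replicates. A flank pair was counted 3.81 to 6.17 times per library in which it occurred in erythroid replicates and 4.87 to 6.49 times in ES replicates. The counts are thus repeats of far fewer distinct pairs, and intervals or floors made from counts cover counting error only.

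Seen from HS2, the flank as a whole had fewer contacts in erythroid cells than in ES cells. Each pair adds 1 contact for each of its fragments in the flank. The level was 33.8, 32 and 66.1 contacts per 1000 contact pairs of the table in erythroid replicates 1, 2 and 3, against 98.0, 127 and 77.1 in ES replicates 1, 2 and 3. Every erythroid replicate lay below every ES replicate, with erythroid replicate 3 closest to ES replicate 3. The means were 44 ± 19.2 in erythroid cells and 101 ± 25.3 in ES cells (SD, n = 3 each), a log2 ratio of -1.20. The two-sided exact permutation test gave p = 0.1, the smallest that 3 against 3 replicates allow, and 0.167 after adjustment over the 15 levels and shares compared. As a share of all contacts in a 400 kb window around the locus, which leaves out distant and off-chromosome fragments, the flank held 12.0, 12.8 and 15% in erythroid replicates and 22.5, 28.9 and 29.6% in ES replicates. These shares also did not overlap (exact p = 0.1, adjusted 0.167). With the total on chromosome 7 in place of the table total the difference was smaller, a log2 ratio of -0.47, and the replicates still did not overlap.

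Seen from beta CTCF, the total level of the flank could not be separated between the cell types. It was 81.2, 66.8 and 125 contacts per 1000 contact pairs in erythroid replicates and 72.1, 119 and 78.6 in ES replicates, and the ranges overlapped. The means were 91.1 ± 30.5 in erythroid cells and 89.9 ± 25.4 in ES cells (SD, n = 3 each, exact p = 0.9). The difference, erythroid minus ES, was 1.21, and -7.70 without ES replicate 1. With the chromosome 7 total the erythroid replicates (235 to 280) all lay above the ES replicates (174 to 191). The ratio of the flank level from HS2 to that from beta CTCF, taken within each replicate, used both tables at once. On the log2 scale it was -1.26, -1.06 and -0.93 in erythroid replicates and 0.44, 0.10 and -0.03 in ES replicates. The groups did not overlap (exact p = 0.1, adjusted 0.167), so that relative to beta CTCF the flank was contacted less by HS2 in each erythroid replicate than in any ES replicate.

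The flank on the other side of the locus served as the most similar region. The upstream flank took 56.2, 58.5 and 56.3% of the contacts of both flanks from HS2 in erythroid replicates and 55.0, 70.2 and 65.0% in ES replicates (exact p = 0.4). From beta CTCF it took 43, 40.2 and 46.0% in erythroid replicates and 35.8, 48.5 and 47.8% in ES replicates (exact p = 0.8). From neither viewpoint was this share separated between the cell types.

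Within the flank the contacts were distributed differently in erythroid and ES cells from both viewpoints, with a smaller part in the far portion in erythroid cells. The flank was divided at 50 kb and 80 kb from HS2, the range in which its upstream CTCF sites were taken to lie, into a near, a middle and a far segment of 7, 8 and 17 bins of 4 kb. The division was made after the values had been seen. From HS2 the far segment held 14.3, 19.1 and 17.2% of flank contacts in erythroid replicates, against 29.8, 38.7 and 42.7% in ES replicates. From beta CTCF it held 20.1, 21.1 and 19.1% in erythroid replicates, against 33.9, 40.0 and 41.2% in ES replicates. The near segment held more, 53.1 to 55.0% in erythroid and 37.5 to 49.4% in ES replicates from HS2, and 49.6 to 50.9% in erythroid and 32 to 39.9% in ES replicates from beta CTCF. The middle segment was also the larger part in erythroid cells, with 29.2 ± 1.42% against 19.8 ± 1.09% in ES cells from HS2, and 29.6 ± 0.785% against 25.3 ± 2.14% from beta CTCF (SD, n = 3 each). All 6 comparisons separated the replicates without overlap, each with exact p = 0.1 and 0.167 after adjustment. The 3 shares of a replicate sum to the whole and are not independent of each other.

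**Figure D1:**
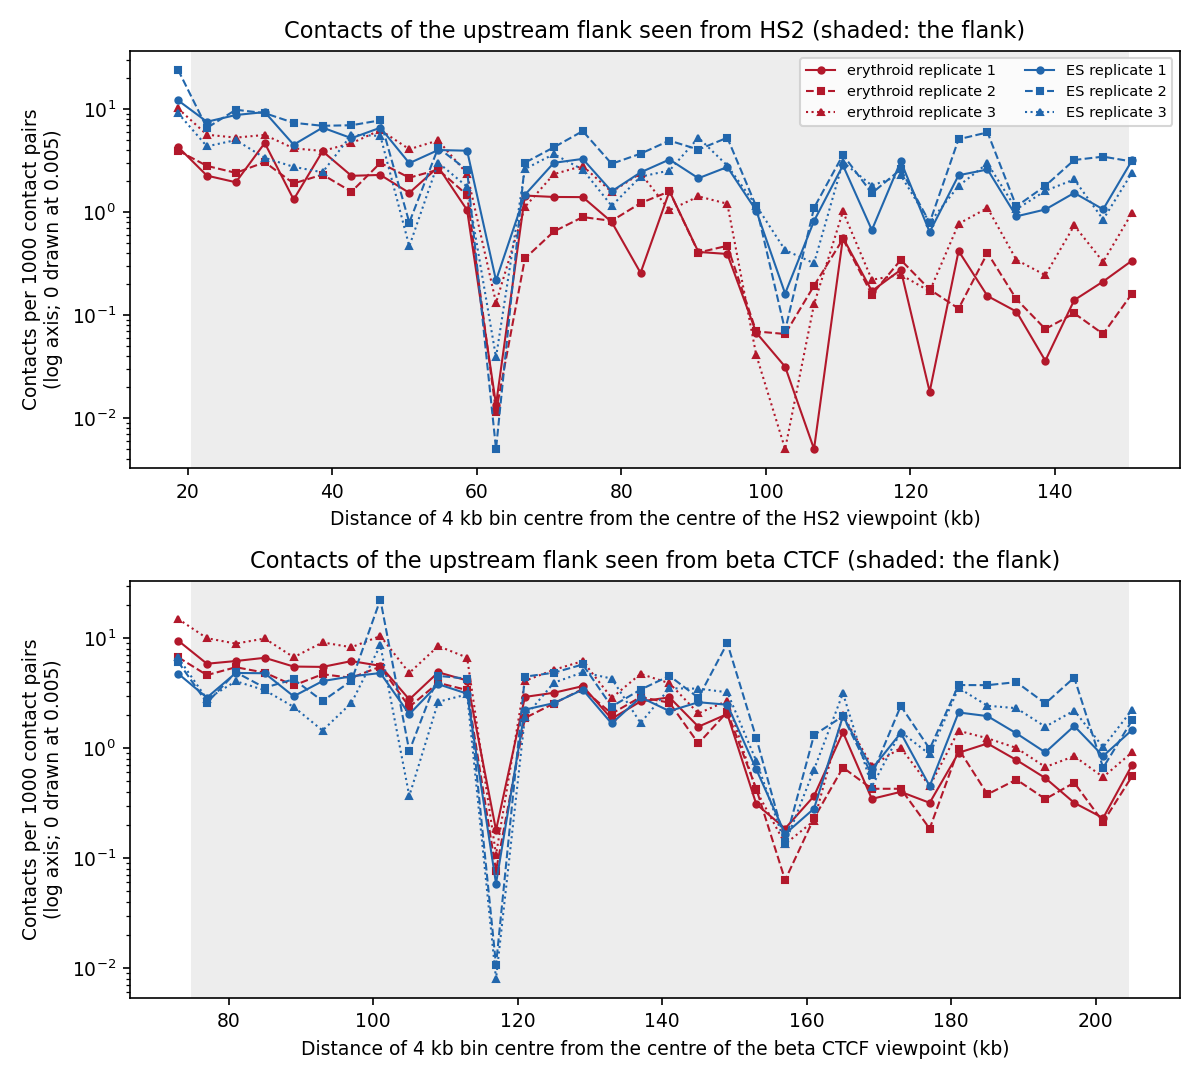
Contacts per 1000 contact pairs (log axis) in each 4 kb bin of the flank and the bin on either side, against the distance of the bin's centre from the HS2 viewpoint (top) or the beta CTCF viewpoint (bottom), with 1 line per biological replicate. From HS2 the erythroid lines separate downward from the ES lines beyond 80 kb, and the deep dips fall on bins that hold 4 to 8 fragments.

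Bin by bin, the far part of the flank accounted for each of the differences called from HS2. A bin was called when its adjusted p was under 0.05 in edgeR's quasi-likelihood test (Benjamini-Hochberg adjustment over all bins of the 400 kb window). From HS2, 14 of 32 flank bins were lower in erythroid cells and 0 were higher; over the whole window 26.5% of 98 bins were lower and 3.06% higher. All 14 called bins lay in the far segment, where 14 of 17 bins were called, against 0 of 7 in the near and 0 of 8 in the middle segment. On the window total 2 near and 2 middle bins were called lower as well, beside 14 far bins. The median log2 change was -0.78 in the near, -0.80 in the middle and -2.77 in the far segment, beside -1.02 over all bins of the window. These medians move with the scaling, to 0.09, 0.08 and -1.72 with DESeq2 beside -0.03 over the window. The far median minus that of all bins was -1.75, and -1.86 to -1.58 over 5 ways of scaling. Erythroid and ES replicates did not overlap in 19 of 32 flank bins, 16 of them far, beside 48.0% of the bins of the window. In the flank, DESeq2 with its own size factors called 12 lower and 2 higher, edgeR with the chromosome 7 total 11 lower and 1 higher, and with the window total 18 lower and 0 higher. Among the 98 window bins these settings called 19 lower and 17 higher, 18 and 9, and 35 and 8. Leaving out erythroid replicate 1 or ES replicate 2 reduced the lower calls in the flank to 8, and leaving out erythroid replicate 3 raised them to 21.

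The bin centred 98.7 kb from HS2 had the largest fall. It had 0.0674, 0.0692 and 0.0409 contacts per 1000 contact pairs in erythroid replicates, against 1.03, 1.13 and 1.15 in ES replicates, a log2 change of -4.22 ± 0.91 (SE, edgeR adjusted p = 0.000116). The bin holds 8 fragments, and with the first technical replicates alone it was no longer called. At 138.7 kb the level was 0.0359, 0.073 and 0.243 in erythroid replicates and 1.06, 1.79 and 1.60 in ES replicates (log2 change -3.63 ± 0.82). The bin at 118.7 kb had 0.274, 0.342 and 0.246 in erythroid replicates and 3.11, 2.59 and 2.27 in ES replicates, so that each erythroid level lay far below the lowest ES level (log2 change -3.21 ± 0.74). This bin, like the one at 138.7 kb, was called under all 17 alternatives that keep the grid. The fall was -3.13 ± 0.77 at 146.7 kb, where the means were 0.201 ± 0.131 in erythroid and 1.78 ± 1.44 in ES cells, and -2.86 ± 0.80 at 114.7 kb, with 0.183 ± 0.0327 in erythroid and 1.33 ± 0.592 in ES cells (SD, n = 3 each). Without ES replicate 2 the bin at 146.7 kb lost its call (edgeR adjusted p = 0.0911).

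The near part of the flank had the highest levels from HS2 in both cell types. In erythroid cells these were the bins at 30.7 kb (4.43 ± 1.29), 46.7 kb (3.84 ± 2.11) and 22.7 kb (3.56 ± 1.81). In ES cells they were the bins at 26.7 kb (7.84 ± 2.53), 30.7 kb (7.26 ± 3.39) and 46.7 kb (6.60 ± 1.14 contacts per 1000 contact pairs, SD, n = 3 each). None of these 4 bins was called, with log2 changes of -0.71 to -1.29 on the table total. Other settings called 3 of them lower. The bin at 26.7 kb was called in 4 of 17 alternatives, on the window total (edgeR adjusted p = 0.00408, with 0.84 the highest over the 17), without erythroid replicate 3, without ES replicate 3 and with each fragment pair counted once. The bins at 22.7 and 46.7 kb were called without erythroid replicate 3 (edgeR adjusted p = 0.0417 and 0.0336, with 0.982 and 0.951 the highest over their alternatives). For the bins at 22.7, 30.7 and 46.7 kb the sign turned when the samples were scaled otherwise, for example to 0.14, 0.37 and 0.09 with DESeq2. The bin at 50.7 kb was the only flank bin with a positive change on the table total, 0.87 ± 0.66 (adjusted p = 0.3).

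When each replicate was scaled to its own flank total, a comparison of shape added after the values had been seen, 9 far bins of the 32 flank bins were lower in erythroid cells and 2 flank bins were higher from HS2. Over the window 17 of 98 bins were higher on this scaling and 15 lower, and 15 of the higher bins lay outside the flank. The 2 higher flank bins were those at 50.7 kb (log2 change 2.02 ± 0.52, edgeR adjusted p = 0.00535) and 54.7 kb (1.07, adjusted p = 0.0208). The bin at 50.7 kb had 1.53, 2.15 and 4.06 contacts per 1000 contact pairs in erythroid replicates and 2.97, 0.79 and 0.465 in ES replicates, so on the table total the groups overlapped through ES replicate 1.

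Along the flank, bins changed in both directions from beta CTCF. Of 32 bins, 2 were higher and 6 were lower in erythroid cells by edgeR's quasi-likelihood test, beside 2.02% higher and 14.1% lower among the 99 bins of the window. The 6 lower bins lay in the far segment, and 1 higher bin lay in each of the near and middle segments. The median log2 change was 0.75 in the near, 0.24 in the middle and -1.27 in the far segment, beside -0.14 over the window. Replicates of the 2 cell types did not overlap in 16 of 32 flank bins, 6 higher and 10 lower, beside 33.3% of window bins. The split of the calls depended on the scaling, with 7 higher and 6 lower on the window total, 8 and 3 on the chromosome 7 total, and 8 and 6 with DESeq2. Among the 99 window bins these settings called 9 higher and 15 lower, 11 and 7, and 12 and 17. The split in the flank rested on single replicates too. Without ES replicate 1 it was 2 higher and 9 lower, 0 bins were called without erythroid replicate 1 (9 at an unadjusted p under 0.05) or 3 (11), 1 lower bin without replicate 2 of either cell type, and 5 lower bins without ES replicate 3.

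The largest fall from beta CTCF was at 142.7 kb from HS2, where the level was 0.317, 0.483 and 0.842 contacts per 1000 contact pairs in erythroid replicates, against 1.58, 4.37 and 2.19 in ES replicates (log2 change -2.30 ± 0.53, edgeR adjusted p = 0.00405). The fall was -1.73 ± 0.52 at 134.7 kb, -1.69 ± 0.55 at 138.7 kb, -1.58 ± 0.51 at 130.7 kb and -1.50 ± 0.54 at 118.7 kb. In that order the edgeR adjusted p-values were 0.0206, 0.0316, 0.0316 and 0.0460. The calls were lost in 6, 7, 7 and 8 of 17 alternatives, and that at 142.7 kb in 4. In each of these 5 bins the highest erythroid level was below the lowest ES level. All 6 bins that were lower from beta CTCF were lower from HS2 too. The viewpoints were captured from the same cells, so this overlap is a description of one set of samples.

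**Figure D2:**
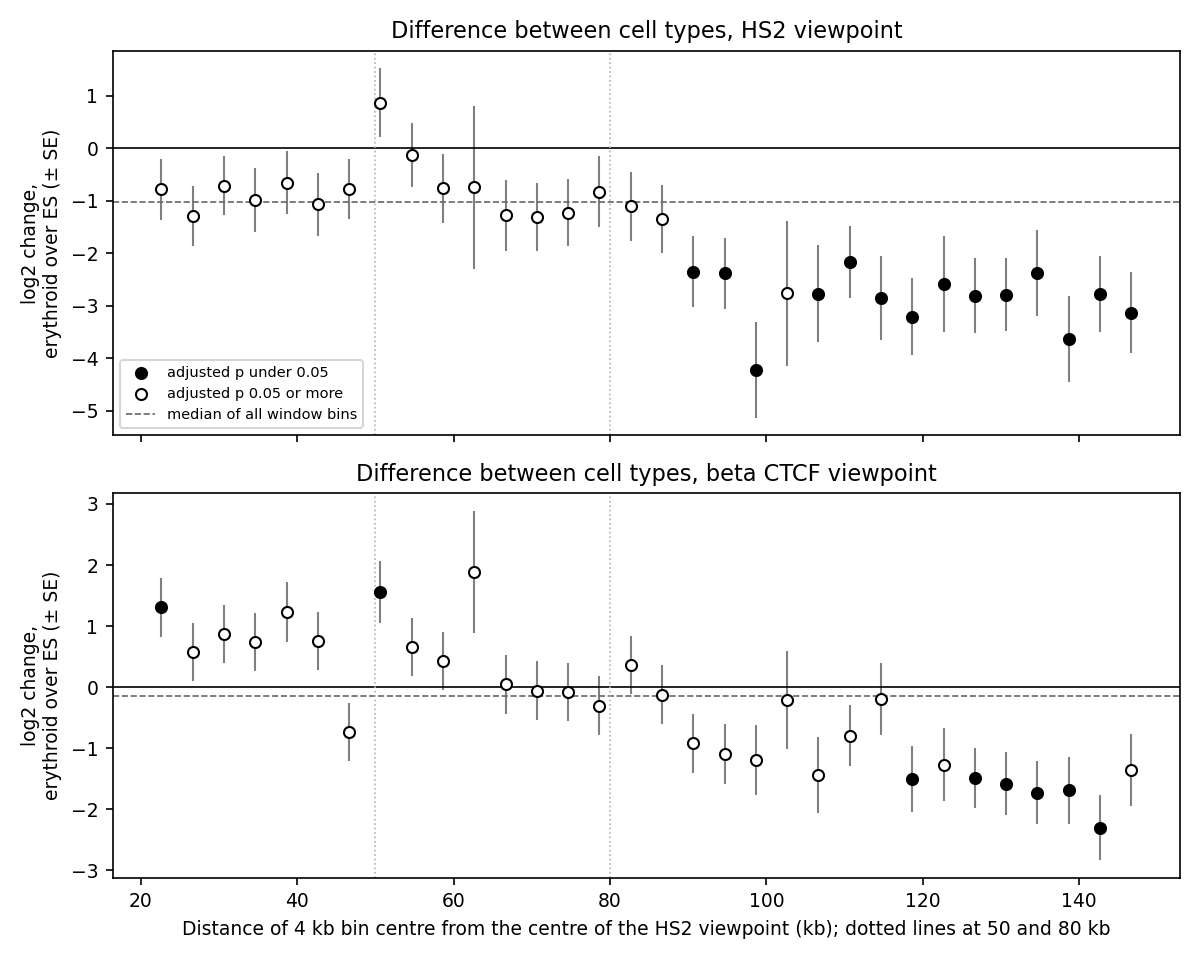
Log2 change of contacts, erythroid over ES, with its SE for each 4 kb bin of the flank, against distance from HS2, seen from HS2 (top) and from beta CTCF (bottom); filled points had an adjusted p under 0.05. From HS2 the 14 called bins all lie beyond 80 kb; from beta CTCF 2 called bins lie above 0 before 60 kb and 6 below 0 beyond 110 kb.

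The 2 bins that were higher from beta CTCF were at 50.7 kb and 22.7 kb. The first had 2.76, 2.37 and 4.81 contacts per 1000 contact pairs in erythroid replicates and 2.03, 0.939 and 0.366 in ES replicates (log2 change 1.56 ± 0.51, edgeR adjusted p = 0.0316). The second, the first bin of the flank, had 5.83, 4.60 and 9.96 in erythroid replicates and 2.87, 2.57 and 2.79 in ES replicates (1.31 ± 0.48, adjusted p = 0.0491). Without any one of the 6 replicates the bin at 22.7 kb lost its call, and the bin at 50.7 kb lost it without 5 of them, all but ES replicate 1, although the groups did not overlap.

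The bin at 22.7 kb holds the Olfr66 promoter printed above, which overlaps 5 fragments. From beta CTCF these together had 2.39, 1.74 and 4.08 contacts per 1000 contact pairs in erythroid replicates, against 0.757, 1.14 and 1.83 in ES replicates. The ranges overlapped, with ES replicate 3 above erythroid replicate 2. The fragments at mm9 chr7:111030595-111030754 (0.624 ± 0.186 in erythroid, 0.321 ± 0.0733 in ES cells) and chr7:111030872-111030948 (0.608 ± 0.319 in erythroid, 0.350 ± 0.346 in ES cells, SD, n = 3 each) were the first and the third of all flank fragments by level in erythroid cells. From HS2 the same 5 fragments had 0.548, 1.13 and 2.18 in erythroid replicates and 2.93, 3.55 and 1.46 in ES replicates, again with overlap. Which fragments to sum was decided after the values had been seen, and no test was made of these sums.

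The flank fragment of rank 2 from beta CTCF in erythroid cells, at chr7:111042087-111042328, had 0.607, 0.300 and 0.931 contacts per 1000 contact pairs in erythroid replicates and 0.274, 0.149 and 0.271 in ES replicates. The same fragment was also of rank 2 from HS2 in erythroid cells, with 0.398 ± 0.110 in erythroid and 0.360 ± 0.397 in ES cells. The fragments of rank 1 and 3 from HS2 lay at chr7:111049656-111049962 (0.423 ± 0.345 in erythroid, 0.306 ± 0.265 in ES cells) and chr7:111041454-111041689 (0.387 ± 0.164 in erythroid, 0.418 ± 0.350 in ES cells). From HS2, for each of these 3 fragments the difference between the means was smaller than the larger SD. In ES cells the leading fragments from HS2 were the neighbours chr7:111036420-111036477 (0.122 ± 0.0902 in erythroid, 0.860 ± 0.791 in ES cells) and chr7:111036478-111036599 (0.107 ± 0.108 in erythroid, 0.756 ± 0.389 in ES cells). The next was chr7:111041739-111041901 (0.288 ± 0.126 in erythroid, 0.755 ± 0.357 in ES cells; SD, n = 3 each throughout). No gene is named for these fragments, since no promoter of the flank other than that of Olfr66 was placed.

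From beta CTCF the bin at 46.7 kb was the highest of the flank in both cell types, and in a pair of ES replicates it stood out as a narrow peak. Its level was 5.58, 5.49 and 10.4 contacts per 1000 contact pairs in erythroid replicates, against 4.80, 22.3 and 8.58 in ES replicates. ES replicate 2 was the highest, ES replicates 1 and 3 lay below or within the erythroid range, and the groups overlapped (log2 change -0.73 ± 0.48, edgeR adjusted p = 0.283). Without ES replicate 2 the change was 0.10, and with first technical replicates only it was 0.32. The 2 libraries of ES replicate 2 were unlike, with flank levels of 96.2 and 140 contacts per 1000 contact pairs. Whether the peak came from 1 of them was not tested. In ES cells the bin was 4.94 times the mean of its neighbours, the highest ratio in the flank from this viewpoint. It exceeded both neighbours in every ES replicate, and one neighbour holds 10 fragments against 20 in the bin itself.

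The peak came from 5 consecutive short fragments that span 340 bp, chr7:111055133-111055472. They had 1.73, 1.90 and 3.22 contacts per 1000 contact pairs in erythroid replicates, against 1.49, 18.5 and 4.60 in ES replicates. They made up 31, 34.7 and 30.9% of the bin's contacts in erythroid replicates, against 31, 82.9 and 53.6% in ES replicates. When each fragment pair counted once per library, their level was 1.14, 1.12 and 1.63 in erythroid replicates and 0.804, 3.90 and 2.55 in ES replicates, with ES replicates 2 and 3 again the highest. From HS2 the 5 fragments had 0.517, 1.00 and 1.83 in erythroid replicates and 2.53, 2.50 and 1.62 in ES replicates, and took 22.6 to 38.6% of the bin's contacts in every replicate. The fragments chr7:111055190-111055238, chr7:111055239-111055309 and chr7:111055310-111055426 were the 3 most contacted of the flank in ES cells from beta CTCF. The first of them had 0.387, 0.485 and 0.550 in erythroid replicates and 0.239, 4.89 and 1.39 in ES replicates.

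**Figure D3:**
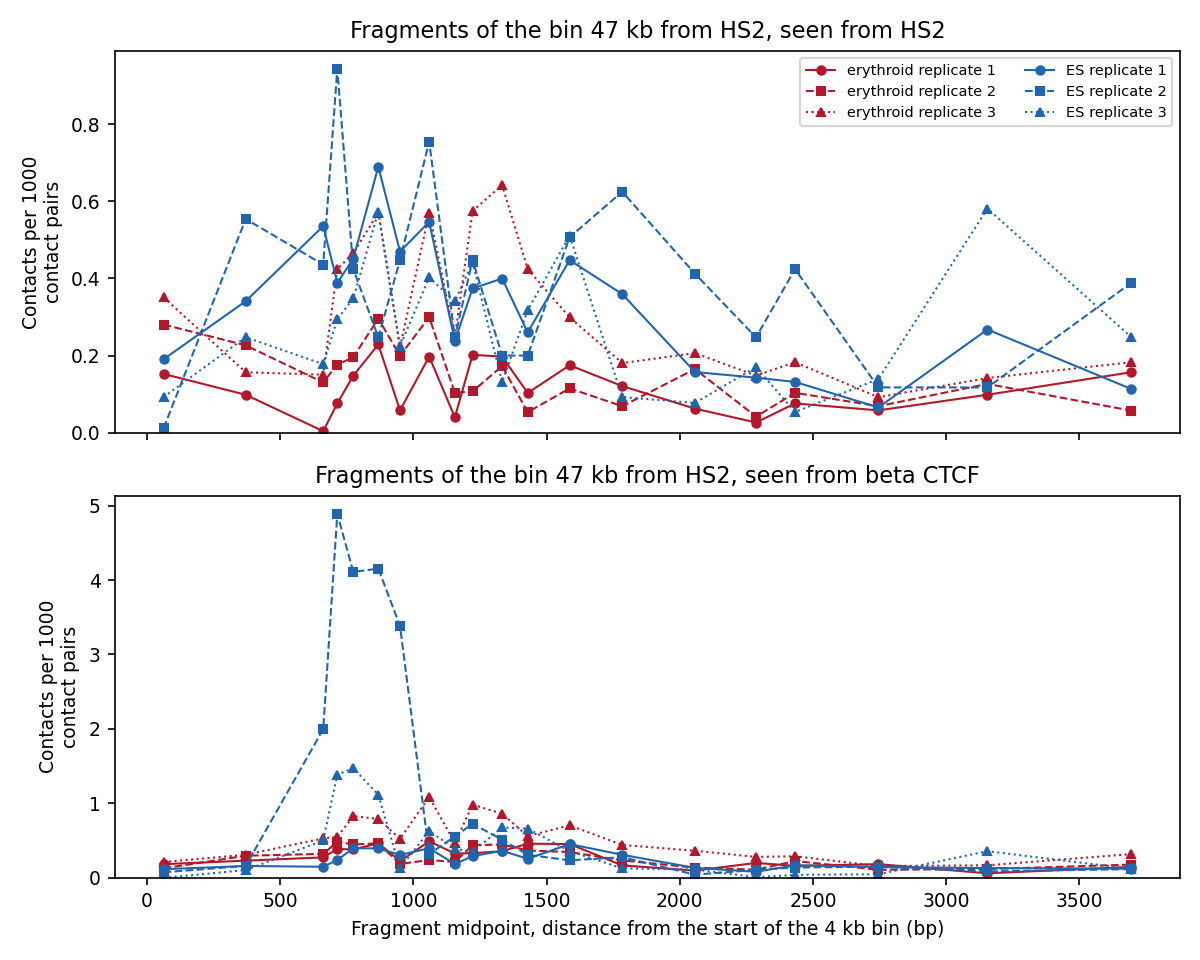
Contacts per 1000 contact pairs of each NlaIII fragment of the 4 kb bin centred 46.7 kb from HS2, against the fragment's distance from the start of the bin, seen from HS2 (top) and from beta CTCF (bottom), with 1 line per biological replicate. From beta CTCF ES replicate 2, and less so ES replicate 3, stand out over a run of short fragments where ES replicate 1 stays with the erythroid replicates.

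Fragments of this bin were counted together with fragments of a bin on the other side of the globin locus. The 46.7 kb bin was chosen for this look at partners after the values had been seen. Among 1444 pairs of bins that join the flank to a bin outside it, the pair of the 46.7 kb bin with the bin that holds the Olfr623 promoter, 248 kb away, had the highest mean in ES cells from beta CTCF and the second highest in erythroid cells. It had 0.377, 0.244 and 0.515 contact pairs per 1000 in erythroid replicates, against 0.223, 2.27 and 1.94 in ES replicates. ES replicates 2 and 3 lay above all erythroid replicates and ES replicate 1 below them, and edgeR did not call the pair on the table total (log2 change -1.96 ± 0.80, adjusted p = 0.468). It was called in 1 of 16 alternatives, on the window total, with adjusted p-values of 0.0249 to 0.996 over them. From HS2 the same pair had 0.0584, 0.115 and 0.345 in erythroid replicates and 0.385, 1.31 and 0.341 in ES replicates, second of 873 such pairs in ES cells (adjusted p = 0.352, with 0.0303 to 0.972 over 16 alternatives, the lowest with repeats of a pair in a library counted once).

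At fragment level, the leading partners outside the flank from beta CTCF in ES cells lay just beyond the printed Olfr623 stretch, on the side of the gene body. They were chr7:110809528-110809584, with 0.00455, 0.00822 and 0.0111 contact pairs per 1000 in erythroid replicates and 0.00127, 1.33 and 0.486 in ES replicates, and chr7:110809291-110809407, with 0.0191 ± 0.0171 in erythroid and 0.316 ± 0.297 in ES cells (SD, n = 3 each). The last of the leading 3, chr7:110809040-110809083, was among the leading 3 in erythroid cells too, with 0.220 ± 0.140 in erythroid and 0.274 ± 0.219 in ES cells. The second partner, like the first, was highest in ES replicates 2 and 3 (0.608 and 0.327, against 0.0140 in ES replicate 1). The 4 fragments that overlap the Olfr623 promoter itself had 0.052 to 0.401 contacts per 1000 contact pairs in erythroid replicates and 0.139 to 0.327 in ES replicates. The ES range thus lay within the erythroid range. These promoter levels count all pairs, while the partner levels count only pairs with a flank fragment, so the measures are not alike.

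Several bins, that at 46.7 kb among them, exceeded both neighbours in all 3 replicates of a cell type. There were 5 such bins from HS2 in erythroid and 4 in ES cells, and 4 in erythroid and 7 in ES cells from beta CTCF. The bin at 110.7 kb had the highest ratio to its neighbours from HS2 in both cell types, 4.86 in erythroid and 3.04 in ES cells, and a ratio of 3.57 in erythroid and 3.62 in ES cells from beta CTCF. It holds 23 fragments and its neighbours 8 and 15, so the ratio sets bins of unlike fragment number side by side. Its level from HS2 was 0.562, 0.546 and 1.01 in erythroid replicates and 2.84, 3.58 and 3.04 in ES replicates (log2 change -2.16 ± 0.69, edgeR adjusted p = 0.00828, a call lost without erythroid replicate 1, without ES replicate 2, with first technical replicates only and on the flank total, with adjusted p-values of 0.000421 to 0.111 over 17 alternatives), and from beta CTCF 1.35 ± 0.666 in erythroid and 2.34 ± 0.694 in ES cells (adjusted p = 0.27). The bin at 118.7 kb followed, with 1.89 in erythroid and 2.57 in ES cells from HS2 and 2.62 in ES cells from beta CTCF. The bins at 54.7 kb from HS2 in erythroid cells (1.63) and 130.7 kb in ES cells (1.87) came next. From beta CTCF the bins at 94.7 kb (2.33) and 74.7 kb (1.51) had ranks 2 and 3 in erythroid cells. Their levels were 2.28 ± 0.350 in erythroid and 4.89 ± 3.57 in ES cells at 94.7 kb, and 4.42 ± 1.51 in erythroid and 4.67 ± 1.19 in ES cells at 74.7 kb, and neither was called. These bins also had ranks 2 and 3 by level in ES cells from beta CTCF. In erythroid cells those ranks went to the bins at 30.7 kb (7.11 ± 2.57 in erythroid, 3.89 ± 0.778 in ES cells) and 26.7 kb (6.83 ± 1.82 in erythroid, 4.58 ± 0.462 in ES cells). In both bins the replicates did not overlap, and neither was called on the table total. Under other scalings both were called higher, that at 30.7 kb with DESeq2, with TMM, on the window total and on that of chromosome 7 (adjusted p-values of 0.00295 to 0.437 over 17 alternatives) and that at 26.7 kb with DESeq2, with TMM and on the total of chromosome 7 (0.00956 to 0.633).

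Fragments of the flank were most often seen together with other fragments of the flank. This share was 36.3, 35.4 and 44.5% of flank contact pairs from HS2 in erythroid replicates and 38.1, 52.7 and 31.1% in ES replicates. From beta CTCF it was 34.4, 36.3 and 46.2% in erythroid replicates and 34.5, 54.3 and 29.9% in ES replicates, and it was not separated between the cell types from either viewpoint (exact p = 0.8 and 0.9). Of the pairs within the flank, 83.0 to 88.2% in erythroid and 77.2 to 89.4% in ES replicates joined fragments at most 4 kb apart from HS2. For beta CTCF this was 80.3 to 85.5% in erythroid and 73.9 to 90.1% in ES replicates. Among partners in the window, the flank on the other side of the locus had 59.6 ± 7.01% partners of its own in erythroid and 66.7 ± 7.46% in ES cells from HS2, beside 63.2 ± 2.98% in erythroid and 68.2 ± 7.93% in ES cells for the upstream flank (SD, n = 3 each).

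The largest difference in partner share between the cell types was for partners elsewhere on chromosome 7. The class within 2 Mb of HS2 left out the flank, the other flank and the locus between them. It included the part of the window beyond the flank's far end, which was not counted apart. Partners in this class made up 3.97, 3.90 and 4.43% of flank contact pairs from HS2 in erythroid replicates, against 16.6, 12.6 and 25.6% in ES replicates. From beta CTCF they made up 7.33, 6.15 and 5.42% in erythroid replicates, against 18.9, 15 and 25.6% in ES replicates. The groups were far apart and did not overlap from either viewpoint (exact p = 0.1, 0.4 after adjustment over the 20 class shares of both viewpoints). Partners on chromosome 7 beyond 2 Mb went the other way, with 16.9, 18 and 13.6% in erythroid replicates and 10.8, 5.88 and 10.2% in ES replicates from beta CTCF, without overlap. From HS2 these were 15 ± 2.23% in erythroid and 9.71 ± 3.23% in ES cells, with overlap (exact p = 0.2). Partners on other chromosomes took 18.1 ± 2.87% in erythroid and 13.3 ± 2.76% in ES cells from HS2 and 17.1 ± 3.12% in erythroid and 12.4 ± 3.26% in ES cells from beta CTCF. The share of off-chromosome pairs in the whole tables differed between the cell types as given above, and its part in these shares was not tested.

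Toward the globin locus, the range of the adult genes was the partner whose share differed from HS2. It took 3.97, 5.76 and 4.07% of flank contact pairs in erythroid replicates, against 1.75, 1.64 and 0.883% in ES replicates, without overlap (exact p = 0.1, adjusted 0.4). These are the genes transcribed in adult red cells. Of flank pairs from beta CTCF the same range took 2.92 ± 0.951% in erythroid and 4.17 ± 1.24% in ES cells, with overlap between them. As pairs per 1000 contact pairs of the table, the adult range joined the near segment at 0.638 ± 0.312 in erythroid and 0.552 ± 0.456 in ES cells from HS2. This level is scaled by the table total, off-chromosome pairs included, and not by the total of flank pairs. For the far segment it was 0.236 ± 0.0331 in erythroid and 0.236 ± 0.174 in ES cells. The higher share in erythroid cells thus went with a lower total of flank pairs, and in the middle segment alone were the levels separated, with 0.350, 0.623 and 0.612 in erythroid replicates and 0.293, 0.224 and 0.248 in ES replicates. Of 30 such combinations of a segment and a range over both viewpoints, 8 had levels without overlap (each exact p = 0.1, unadjusted). From HS2 the far segment joined the control region at 0.180, 0.238 and 0.360 in erythroid replicates and 0.950, 0.566 and 0.620 in ES replicates. It joined the embryonic range at 0.103, 0.10 and 0.405 in erythroid replicates and 0.811, 0.695 and 1.05 in ES replicates. The far segment was thus lower in erythroid replicates with these partners too. With beta CTCF as viewpoint the middle segment joined the control region at 0.578 ± 0.239 in erythroid and 0.202 ± 0.0995 in ES cells, while the far segment joined the adult range at 0.318 ± 0.138 in erythroid and 0.794 ± 0.0738 in ES cells (SD, n = 3 each), so these went opposite ways. The ranges of the locus were placed from general knowledge of its layout, not from an annotation of mm9.

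The rest of the locus control region took 6.19 ± 0.300% of flank contact pairs in erythroid and 4.16 ± 1.92% in ES cells from HS2, and 2.91 ± 0.455% in erythroid and 2.10 ± 0.859% in ES cells from beta CTCF. The embryonic gene range took 2.50 ± 0.545% in erythroid and 3.28 ± 1.19% in ES cells from HS2, and 1.13 ± 0.274% in erythroid and 1.78 ± 0.368% in ES cells from beta CTCF. The other flank took 5.69 ± 2.53% in erythroid and 4.19 ± 1.23% in ES cells from HS2, and 10.2 ± 1.18% in erythroid and 8.75 ± 2.86% in ES cells from beta CTCF. In each of these 6 comparisons the replicates overlapped. From beta CTCF, the 4 kb bin between the control region and the flank took 2.58, 2.31 and 2.42% in erythroid replicates and 1.28, 0.982 and 0.50% in ES replicates, without overlap. From HS2 the 2 cell types were close there, with 2.78 ± 0.263% in erythroid and 2.86 ± 0.371% in ES cells. The range around beta CTCF took 0.0725, 0.163 and 0.692% in erythroid replicates and 0.310, 0.0423 and 0% in ES replicates from HS2. It was the smallest class, and the groups overlapped.

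**Figure D4:**
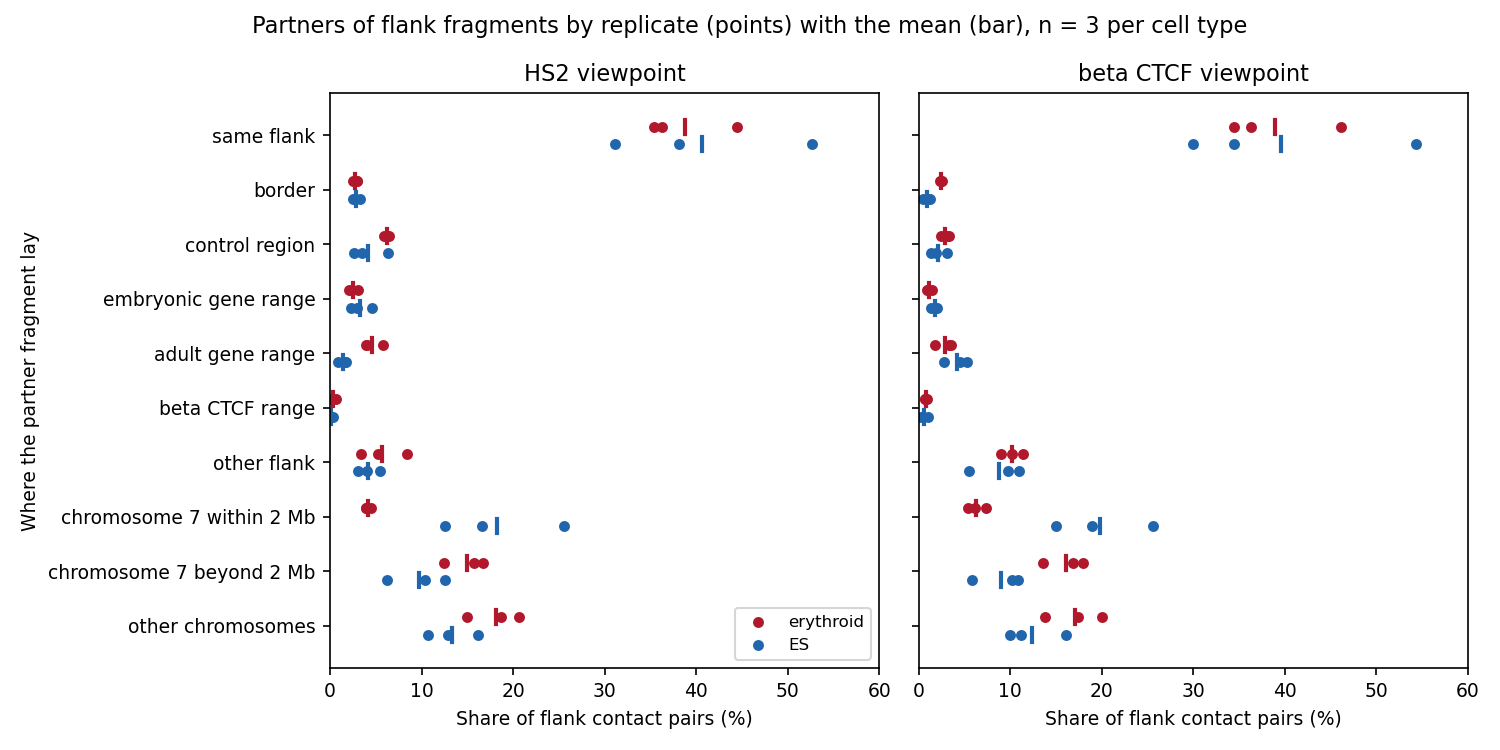
Share of flank contact pairs (%) by where the partner fragment lay, seen from HS2 (left) and beta CTCF (right), with 1 point per biological replicate and a bar at the mean of each cell type (n = 3). The class within 2 Mb of HS2 separates the cell types most, with 3.90 to 4.43% in erythroid and 12.6 to 25.6% in ES replicates from HS2.

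The single partner fragments of highest level lay mostly at the near border of the flank. From beta CTCF in erythroid cells these were chr7:111029962-111030197, with 0.311, 0.249 and 0.210 contact pairs per 1000 in erythroid replicates and 0.0229, 0.16 and 0.0557 in ES replicates, and chr7:111030410-111030586, with 0.226 ± 0.125 in erythroid and 0.0775 ± 0.0266 in ES cells. The fragment at chr7:111030410-111030586 ends a few bases before those of the Olfr66 promoter. It was also second from HS2 in erythroid cells, with 0.108 ± 0.0791 in erythroid and 0.220 ± 0.170 in ES cells, ahead of chr7:111030209-111030234 with 0.105 ± 0.0624 in erythroid and 0.129 ± 0.167 in ES cells. The first from HS2, chr7:110936114-110936207, rested on erythroid replicate 1, with 0.319, 0 and 0.00861 in erythroid replicates and 0.0147, 0 and 0 in ES replicates. In ES cells the leading partners from HS2 were chr7:111030281-111030409 (0.0633 ± 0.0398 in erythroid, 0.319 ± 0.246 in ES cells), chr7:111029962-111030197 (0.0659 ± 0.0281 in erythroid, 0.298 ± 0.301 in ES cells) and chr7:111029275-111029935 (0.0924 ± 0.0308 in erythroid, 0.280 ± 0.0722 in ES cells; SD, n = 3 each throughout).

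Pairs of 4 kb bins with at least 1 bin in the flank were tested for three-way contacts, and few were called. From HS2 edgeR's quasi-likelihood test called 2 of 207 flank bin pairs lower and 1 higher in erythroid cells, beside 0.99% lower and 0.396% higher among the 505 bin pairs of the window. The neighbouring far bins at 126.7 and 130.7 kb had counts of 0, 0 and 0 in erythroid replicates and 8, 25 and 22 in ES replicates (edgeR adjusted p = 0.0211). This call was lost in 7 of 13 alternatives, with adjusted p-values of 0.00167 to 0.399 over the 13: with no minimum count, with the replicate block, and without ES replicate 1 or 2 or any one of the erythroid replicates. Set against a floor of 3 counts over all erythroid replicates, the pooled ES level of the pair was 35.7-fold higher. This floor takes counts as independent and puts no error on the ES counts, so the fold is not a firm lower bound. The other pairs are named because there were so few calls, and in each of them the counts of the cell types overlapped at 0. The higher one, of the bin at 38.7 kb with a bin on the other side of HS2 at -73.3 kb, had 129, 0 and 8 counts in erythroid replicates and 0 in each ES replicate. It met the minimum through erythroid cells alone. The lower one joined the bin at 26.7 kb to a bin of the adult gene range and had 3, 2 and 0 counts in erythroid replicates and 21, 76 and 0 in ES replicates. No pair was called when replicate 1 or 2 of either cell type was left out. Leaving out the third replicate gave 5 calls for erythroid, the pair at 126.7 and 130.7 kb not among them (edgeR adjusted p = 0.0504), and 8 for ES cells. From beta CTCF 0 of 651 flank bin pairs were called by edgeR or by DESeq2, with 83 and 76 at an unadjusted p under 0.05, beside 0.0685% lower and 0.0% higher among the 1460 bin pairs of the window.

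At both edges of the rule the mean level was lower in the bin just inside than in the bin just outside, from both viewpoints and in both cell types. At the near edge from HS2, the first bin inside the flank, at 22.7 kb, had 2.25, 2.80 and 5.62 contacts per 1000 contact pairs in erythroid replicates and 7.51, 6.54 and 4.33 in ES replicates. The bin just outside it, at 18.7 kb, had 4.28, 3.94 and 10.1 in erythroid replicates and 12.1, 24.0 and 9.12 in ES replicates. At the far edge the last whole bin inside, at 146.7 kb, had 0.211, 0.0654 and 0.327 in erythroid replicates and 1.06, 3.44 and 0.844 in ES replicates, and the next bin, at 150.7 kb, which holds the Olfr639 promoter, had 0.337, 0.161 and 0.982 in erythroid replicates and 3.17, 3.09 and 2.41 in ES replicates. The bin outside the near edge was called (log2 change -1.30 ± 0.52, edgeR adjusted p = 0.0442), but in 10 of 17 alternatives it was not. The bin outside the far edge, at 150.7 kb, was called too (log2 change -2.54, edgeR adjusted p = 0.00229). It kept its call in all 17 alternatives, so the lower level from HS2 went on past the far edge. Seen from beta CTCF, means were 6.80 ± 2.81 inside and 10.4 ± 4.19 outside the near edge in erythroid cells, and 2.74 ± 0.154 inside and 5.84 ± 0.982 outside in ES cells. At the far edge they were 0.329 ± 0.186 inside and 0.722 ± 0.181 outside in erythroid cells, and 0.842 ± 0.179 inside and 1.82 ± 0.383 outside in ES cells (SD, n = 3 each).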

How the data were processed

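The deposited values are whole-number counts from the authors, 1 per pair of NlaIII fragments and library, in 1 table per viewpoint. Per the submitters' processing notes the tools were Trim Galore and Bowtie and the build mm9, without versions or roles. Duplicate removal and read filters are not given in the sources used here. Technical replicates of the 17 libraries were summed to 3 biological replicates per cell type. A viewpoint was placed in the gap its capture leaves in the fragment list. Fragments within 1 kb of it were left out of the counts, and fragments off chromosome 7 entered as shares. Pairs with either kind stayed in the table total, which scaled the levels and the main tests. Contacts were counted in 4 kb bins of a 400 kb window (at least 50 counts) and in pairs of bins (at least 30 counts).

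Bins and pairs were tested with edgeR 4.0.16 (quasi-likelihood, table total as library size, Benjamini-Hochberg adjustment, threshold 0.05) in R 4.3.3, after the step had been tested on simulated data. The SE is the size of the log2 change over the square root of F. Shares and levels were compared with two-sided exact permutation tests in scipy 1.17.1. DESeq2 1.42.0, other scalings, minimums, grids and left-out replicates were alternatives. Named were the 3 bins and fragments of highest level per cell type, up to 5 called bins or pairs per direction without overlap between the groups, the 3 bins that most exceeded their neighbours, and the edge bins. Members, lists and ranges were chosen with earlier results of these data known. The tables of the alpha-globin viewpoints were not used here.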

Additional observations from a re-analysis of the deposited data

How the results depend on the processing

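Over the levels, shares and counts, 369 recomputed values were kept, 25 reversed and 31 moved. A level or share was kept if its difference had the same sign, whatever its p-value. A count was kept if it stayed within a set fold of the main count, and otherwise it had moved. For named bins and pairs, 401 kept their direction and side of the threshold, 75 lost a call, 23 gained one and 24 reversed. Named bins were not run on the 2 kb, 8 kb and shifted grids, which hold other bins. The cause of the changes was not tested. Differences are erythroid minus ES. For partners in the same flank from HS2 the difference was 0.412 on the chromosome 7 total, and -6.67 to 4.10 with single replicates left out. For the border it was 0.112 on that total, 0.85 with each pair counted once per library, 0.421 with first technical replicates only, and -0.24 to 0.125 leaving out replicates (-0.275 without erythroid technical replicate 1). The HS2 share with the beta CTCF range was 4.1e-05 to 0.31. From beta CTCF the flank level difference was -3.78 with pairs counted once and -15.9 to 15.8 leaving out replicates, and the window share -0.475 to 3.39. The upstream share was 0.749 with first technical replicates and -5.10 to 1.27. The same-flank share was 1.97 on the chromosome 7 total, 0.289 with first technical replicates and -5.42 to 6.78. The beta CTCF range was -0.00668 to 0.372, the other flank -0.173 to 2.55, and the share of pairs joining both flanks 0.237 with pairs counted once and -1.01 to 0.265.

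From HS2 9 flank bins were called with first technical replicates and 8 of 16 with 8 kb bins, and 8 to 21 leaving out replicates. HS2 bin pairs called were 11 on the window total, 15 with DESeq2, 0 with no minimum (61 at an unadjusted p under 0.05), 5 with pairs counted once, and 0 to 8. From beta CTCF 13 bins were called on the window total, 14 with TMM, 14 with DESeq2, 0 with first technical replicates (13 unadjusted), 1 of 62 with 2 kb bins, 5 of 16 with 8 kb bins, and 0 to 11. Bin pairs were 2 on the window total, 1 on the chromosome 7 total, 2 with TMM, and 0 to 3. Replicate numbers shared by the cell types did not pair the samples (correlation of deviations -0.15 to 0.13). With the replicate number as a block, edgeR called 14 HS2 bins, 0 HS2 bin pairs (14 unadjusted), 0 beta CTCF bins (11 unadjusted) and 0 beta CTCF bin pairs (9 unadjusted).

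The HS2 bin at 30.7 kb had log2 changes of 0.077 on the chromosome 7 total, 0.19 with TMM, 0.37 with DESeq2 and 0.60 on the flank total. That at 46.7 kb had 0.091 with DESeq2, 0.072 with first technical replicates and 0.36 on the flank total, and that at 22.7 kb 0.14 with DESeq2 and 0.38 on the flank total. At 54.7 kb it was 0.60 on the chromosome 7 total, 0.66 with TMM, 0.81 with DESeq2 and 1.07 on the flank total, and -0.49 to 0.041 leaving out replicates. From beta CTCF the 46.7 kb bin had 0.32 with first technical replicates and -1.11 to 0.10 leaving out replicates, and that at 74.7 kb 0.37 on the chromosome 7 total, 0.10 with TMM, 0.076 with DESeq2, 0.083 with first technical replicates and -0.39 to 0.10 leaving out replicates. Counts repeat few distinct pairs, and the far bins and bin pairs rest on the lowest counts.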
